A study of Mus musculus with 21 samples.

Results

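The 8 genes described here encode ATP-gated and proton-gated cation channels of sensory neurons: P2rx2, P2rx3, P2rx4, P2rx5 and P2rx6 of the P2X family, and Asic1, Asic2 and Asic3 of the acid-sensing ion channel (ASIC) family. They were taken by symbol from the deposited count tables, and all 8 were among the 24381 genes listed in both tables. RNA had been sequenced from mouse dorsal root ganglia (DRG), which hold the cell bodies of the sensory neurons of the body and limbs. Tmem45b-flox::Mrgprd-cre mice carry a floxed Tmem45b gene and Cre recombinase from Mrgprd, a receptor gene of nonpeptidergic nociceptors, and are called cKO here. Tmem45b-flox mice carry the floxed gene without the Cre, and are called flox. The floxed allele is shared by every library, and loss of Tmem45b is expected only in cells that use, or have used, the Mrgprd gene. Cells of the ganglion outside that lineage are expected to keep Tmem45b. Genotype was read from the sample titles, because the genotype field names the Cre line for every sample. Libraries of the CFA model came from 4 cKO and 4 flox samples (in pain research the letters usually mean complete Freund's adjuvant, an inflammatory agent, although the labels give only the letters). Untreated libraries fell into a set with names of the con or ko type (con/ko set, 4 cKO and 3 flox) and a set with names of the LDRG type (3 cKO and 3 flox). Age, time after CFA and the number of animals per library are not given in the sources used here. No label ties a replicate to an animal of its own. The p-values therefore reflect only how far these libraries spread, which may be technical.

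P2X receptors are ATP-gated cation channels built from several subunits of the same or of related kinds. ATP that leaks from damaged or stretched cells opens them. P2X3 is the subunit for which nociceptors are best known, alone or together with P2X2, and it is concentrated in nonpeptidergic nociceptors, the class that also carries Mrgprd. Acid-sensing ion channels are proton-gated sodium channels of the degenerin and epithelial sodium channel superfamily. They open when the fluid around the cell turns acid, as it does in inflamed or poorly perfused tissue, and ASIC3 and ASIC1 carry much of that response in sensory neurons.

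Library totals ran from 53364389 to 72502294 counts, so each gene rests on many counts except P2rx2, which had 156 to 336 per library. Levels are in CPM, the counts of a gene divided by the size of its library and brought to a common scale. Library sizes were adjusted by TMM, a method that assumes most genes do not differ. Tmem45b fell in untreated cKO libraries, to 59.7 to 88.2 CPM, against 124 to 179 CPM in untreated flox libraries (edgeR quasi-likelihood test, log2 difference -1.02 ± 0.07 SE, Benjamini-Hochberg adjusted p = 4.83e-05). In the CFA libraries it did not separate the labels, at 62.6 to 108 CPM in those labelled cKO and 65.5 to 136 CPM in those labelled flox (log2 difference -0.21 ± 0.26 SE, adjusted p = 0.963). CFA genotypes are therefore given below as labelled. All 12 pan-neuronal markers and all 9 measured markers of Mrgprd-type neurons had counts in every library. The 8 CFA libraries carried female-type and the 6 LDRG libraries male-type sex-linked transcripts, so CFA and sex cannot be told apart between them. The con/ko set was mixed, with 4 libraries of female type, whose names carry the letter F, and 3 of male type, whose names carry M. In whole ganglia, fewer cells of a type and less RNA per cell cannot be told apart.

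P2rx3 had the highest length-scaled level of the 8 genes and Asic3 the next. Counts of a long gene exceed those of a short gene at the same abundance, so levels were compared between genes as CPM per kilobase of annotated exon. That length joins the exons of every annotated transcript, used in these ganglia or not, so the order and shares below depend on it. On that scale P2rx3, the ATP-gated subunit typical of nociceptors, averaged 82.4 ± 9.54 CPM per kb over the 21 libraries (SD). Asic3, the sensory-neuron ASIC, averaged 46.3 ± 5.37 CPM per kb, and P2rx3 was the higher of the pair in 21 of 21 libraries. Asic2, whose product joins other ASIC subunits and modulates them, averaged 19.9 ± 1.67 CPM per kb, and Asic1, the subunit widespread in neurons of the brain and the periphery, 17.9 ± 2.73 CPM per kb. The order of those neighbours was not firm, because Asic2 was the higher in 16 of 21 libraries and their ranges overlapped. Before length scaling Asic1 had the higher median, at 106 CPM against 85.2 CPM for Asic2.

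The other P2X members were lower. P2rx6, whose product works mainly in combination with other P2X subunits, averaged 8.43 ± 1.21 CPM per kb. P2rx5, whose product alone carries only small currents in rodents, averaged 5.71 ± 0.79 CPM per kb, and P2rx4, a subunit of neurons, glia and macrophages that is held largely in lysosomes, 4.43 ± 0.39 CPM per kb. P2rx5 exceeded P2rx4 in 18 of 21 libraries on that scale. Before length scaling the order was the reverse, with P2rx4 at 25.6 to 37.6 CPM and P2rx5 at 9.15 to 16.1 CPM. The annotated exon length is 7025 bases for P2rx4 and 2395 bases for P2rx5. P2rx2, the partner of P2X3, was the lowest of the 8 at 1.29 ± 0.31 CPM per kb. P2rx3 made up 76.3% to 85.6% of the summed length-scaled level of the 5 P2X members in a library, and P2rx2 0.925% to 1.82%. Asic3 made up 48.9% to 61.3% of the summed level of the 3 ASIC members.

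**Figure D1:**
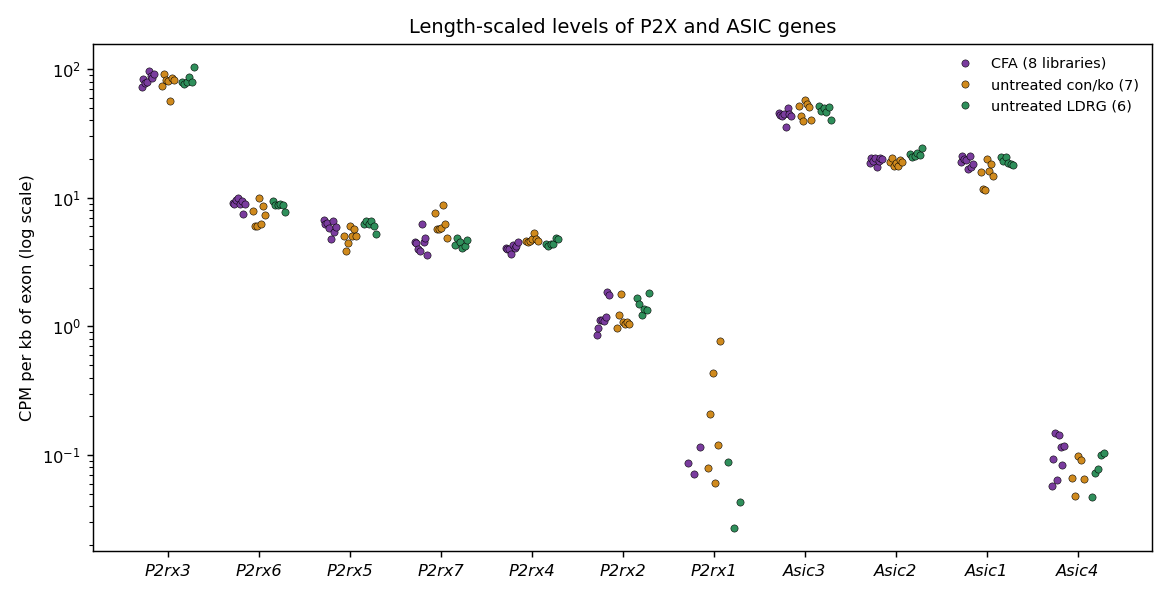
Length-scaled level of each P2X and ASIC gene (vertical axis, CPM per kilobase of exon, log scale), one point per library, coloured by CFA, untreated con/ko and untreated LDRG libraries. Libraries in which P2rx1 (9 of 21) or Asic4 (3 of 21) had 0 counts are not drawn, and Asic5 had 0 counts in all 21. P2rx3 and Asic3 sit above the rest of their families in every library.

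Of the family genes outside the 8, P2rx7, a receptor of macrophages and glia that triggers release of interleukin-1 beta, was at 21.6 to 52.3 CPM. P2rx1, known from smooth muscle, platelets and neutrophils, reached at most 2.01 CPM. Asic4, whose product is not opened by protons on its own, reached at most 0.405 CPM. Asic5 had 0 counts in all 21 libraries.

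The genes lie on several chromosomes (mm10 coordinates from GENCODE vM21). P2rx2 spans chr5:110339812-110343212 on the minus strand, P2rx4 chr5:122707544-122729738 and Asic3 chr5:24413392-24417835, both on the plus strand. P2rx3 spans chr2:84998583-85037462 (minus), P2rx5 chr11:73160421-73172685 (plus), P2rx6 chr16:17561885-17577800 (plus), Asic1 chr15:99670368-99701130 (plus) and Asic2 chr11:80880169-81968457 (minus). Exons of P2rx6 share 554 bases (13.9% of its exon length) with Slc7a4 on the other strand, and those of P2rx3 share 51 bases (1.83%) with Ssrp1. Whether counting used strand is not stated in the sources used here, so reads in those stretches cannot be assigned to one gene of the pair.

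The first question of the design was whether loss of Tmem45b from Mrgprd-lineage neurons altered these genes in untreated ganglia. None of the 8 passed the test across all genes (edgeR quasi-likelihood with name set as a covariate), 2 had an unadjusted p under 0.05, and DESeq2 also called 0. Only 0.00599% of the 16706 genes tested were called in that comparison, which is Tmem45b alone. The 95% intervals of the 8 log2 differences lay between -0.51 and 0.48. Their median log2 difference was 0.07, against -0.001 over all genes tested.

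P2rx3 in untreated con/ko ganglia was at 223, 159, 239.6 and 228 CPM in cKO libraries, against 205, 257 and 229 CPM in flox libraries. In the LDRG set it was at 222.4, 212 and 221 CPM in cKO libraries, against 241, 222.1 and 289 CPM in flox libraries. The cKO libraries were on average the lower in both sets, and the groups overlapped in both. The log2 difference was -0.16 ± 0.09 SE (edgeR, adjusted p = 0.806). Markers of Mrgprd-type nonpeptidergic neurons, among which P2rx3 is normally found, were lower in untreated cKO libraries for 9 of 9 genes. That count is from the fit over both sets, with a median log2 difference of -0.15, and 0 of the 9 passed the test. Among them Plxnc1, a semaphorin receptor, differed by -0.25 ± 0.09, and Scn11a, the sodium channel Nav1.9, by -0.19 ± 0.07 (log2 ± SE, adjusted p = 0.675 and 0.688). Mrgprd itself differed by only -0.05 ± 0.14 (adjusted p = 0.978), and its direction was not the same in both sets. In the LDRG set Mrgprd was higher in cKO libraries, at 147 to 152 CPM, than in flox libraries, at 125 to 137 CPM. In the con/ko set it was at 67.8 to 128 CPM in cKO and 91.9 to 139 CPM in flox libraries.

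P2rx2 was at 2.78, 2.70, 2.81 and 2.71 CPM in con/ko cKO libraries, against 2.48, 3.18 and 4.63 CPM in con/ko flox libraries. In the LDRG set it was at 4.30, 3.87 and 3.17 CPM in cKO libraries and 3.52, 3.47 and 4.65 CPM in flox libraries. Groups overlapped in both sets, and the log2 difference of -0.19 ± 0.15 SE did not pass the test (adjusted p = 0.876). Without flox con/ko replicate 6, the library at 4.63 CPM, it was -0.04 (adjusted p = 1). It was 0.06 ± 0.20 SE with the mean of skeletal muscle markers as a covariate, so its sign depends on that term. P2rx4 differed by -0.01 ± 0.05 SE (log2, adjusted p = 0.984), the smallest difference of the 8, and was positive within the con/ko set alone (0.09). In the LDRG set the cKO libraries, at 29.41 to 30.59 CPM, all lay below the flox libraries, at 30.64 to 34.32 CPM. The con/ko minus LDRG difference between these genotype effects was 0.21 ± 0.09 SE (edgeR, adjusted p = 0.9903).

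Asic1 showed the smallest p of the 8 in untreated ganglia. In the con/ko set it was at 114, 92.0, 106 and 84.6 CPM in cKO libraries, against 91.5, 67.3 and 65.5 CPM in flox libraries. In the LDRG set it was at 119.5, 112 and 118 CPM in cKO libraries, against 107, 105 and 103 CPM in flox libraries. The LDRG groups did not overlap, and the con/ko groups overlapped by 1 cKO library below 1 flox library. The log2 difference was 0.28 ± 0.09 SE (21.7% higher, 95% interval 0.08 to 0.48), which did not pass over all genes (adjusted p = 0.662). Its rank by p was 234 of the 16706 genes.

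Con/ko library names also carry the letter C or L, which the labels do not explain. Asic1 was at 114, 92.0 and 106 CPM in the 3 cKO libraries coded C, against 91.5 CPM in the flox library coded C. It was at 84.6 CPM in the cKO library coded L, against 67.3 and 65.5 CPM in the flox libraries coded L. Both letters thus had higher values in cKO libraries, and C-coded libraries were higher than L-coded ones within each genotype. With the letters as terms, an alternative chosen after the data were seen, the log2 difference of Asic1 was 0.20 ± 0.05 SE (adjusted p = 0.688). Transcripts of skeletal muscle divided the con/ko genotypes, with a summed level of 9.3 to 20.4 CPM in cKO libraries against 519 to 925 CPM in flox libraries. With their mean as a covariate the difference of Asic1 was 0.18 ± 0.12 SE (adjusted p = 1).

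P2rx5 was at 11.96 to 14.5 CPM in the 4 con/ko cKO libraries, against 12.2, 9.15 and 10.7 CPM in con/ko flox libraries. LDRG libraries had 14.9, 15.7 and 14.9 CPM in cKO and 15.8, 14.4 and 12.5 CPM in flox ganglia. Groups overlapped in both sets, and the log2 difference was 0.20 ± 0.09 SE (adjusted p = 0.715). P2rx6 was at 25.1 to 39.8 CPM in con/ko cKO and 23.9 to 31.5 CPM in con/ko flox libraries, and at 34.8 to 37.6 CPM in LDRG cKO and 31.0 to 35.9 CPM in LDRG flox libraries. Asic3 was at 97.9 to 139.9 CPM in con/ko cKO and 95.6 to 126 CPM in con/ko flox libraries, and at 114 to 125 CPM in LDRG cKO and 97.8 to 122 CPM in LDRG flox libraries. All 4 of these pairs of ranges overlapped. P2rx6 differed by 0.18 ± 0.11 SE and Asic3 by 0.15 ± 0.09 SE (log2, adjusted p = 0.806 and 0.807), and Asic2 by -0.06 ± 0.04 SE (adjusted p = 0.863).

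**Figure D2:**
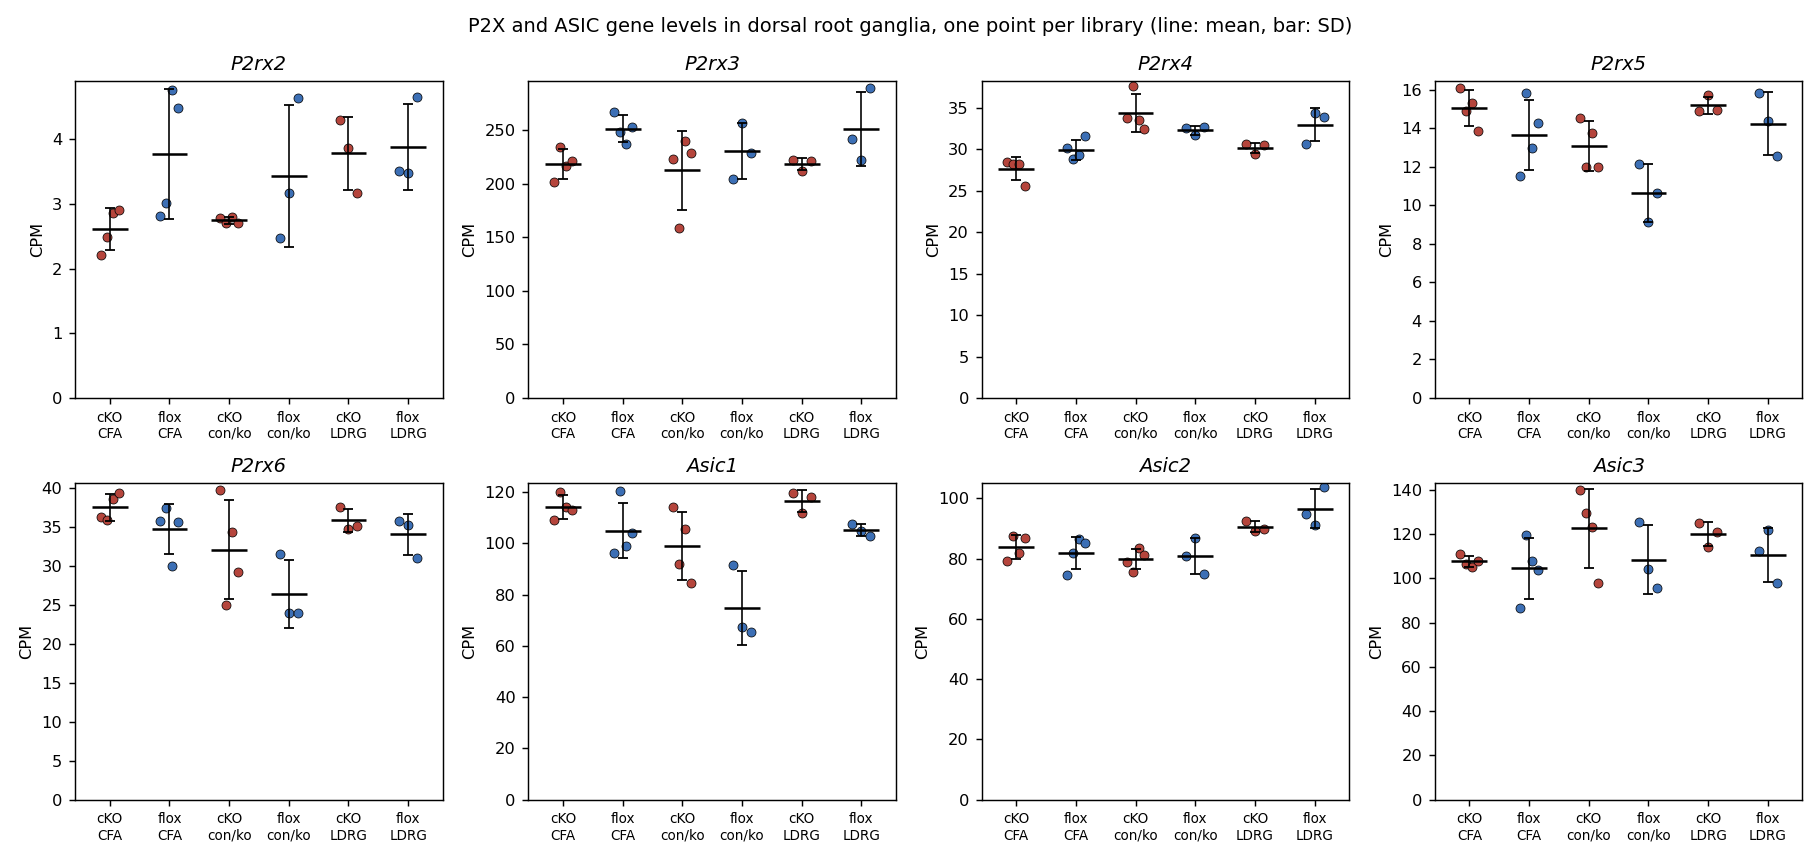
CPM of each of the 8 genes by group (vertical axis from 0, one point per library, red for cKO and blue for flox, line at the mean and bar for the SD of 3 or 4 libraries). P2rx2 and P2rx3 are lower on average in cKO than in flox libraries in each of the 3 sets. Asic1, Asic3, P2rx5 and P2rx6 are higher on average in cKO libraries in each.

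The same comparison among CFA libraries called 0 of the 8 genes, with 2 at an unadjusted p under 0.05 and 0 called by DESeq2. Over all 16116 genes tested, 0 (0%) were called by edgeR, 799 had an unadjusted p under 0.05, and DESeq2 called 18. P2rx3 was at 201, 235, 217 and 221 CPM in CFA libraries labelled cKO, against 267, 248, 237 and 253 CPM in those labelled flox. All 4 libraries labelled cKO were below all 4 labelled flox. The log2 difference was -0.20 ± 0.06 SE (13.1% lower, 95% interval -0.34 to -0.07), with an adjusted p of 0.938. It ranked 102 of the 16116 genes by p.

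Several marker lists differed in level between the CFA labels, though 0 of their genes passed the test. For Mrgprd-type neuron markers the summed level was 1527 to 1768 CPM in CFA libraries labelled cKO and 1769 to 1998 CPM in those labelled flox. Of these 9 markers, 9 were lower (median log2 difference -0.15), and Mrgprd itself differed by -0.25 ± 0.13 SE (adjusted p = 0.938). Large A-fibre and proprioceptor markers lay the other way, with a summed level of 5492 to 5738 CPM in libraries labelled cKO and 4716 to 5488 CPM in those labelled flox, without overlap. All 8 neutrophil markers, 6 of 7 red cell markers and all 10 tested skeletal muscle markers were lower in libraries labelled cKO (median log2 difference -0.37, -0.58 and -1.62). Summed levels of those lists overlapped between the labels, given here with cKO first. Neutrophil markers were at 49.9 to 138 and 41.5 to 135 CPM, and red cell markers at 230 to 476 and 220 to 638 CPM. Skeletal muscle markers were at 4.63 to 32.0 CPM (median 9.87) and 6.75 to 120 CPM (median 8.78). The part of any of these cells in the values of P2rx3 was not tested. Over all 21 libraries with name set as a term, an alternative chosen after the data were seen, the genotype difference of P2rx3 was -0.17 ± 0.06 SE (log2, adjusted p = 0.472).

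P2rx2 was at 2.21, 2.48, 2.86 and 2.91 CPM in CFA libraries labelled cKO, against 2.81, 3.02, 4.77 and 4.49 CPM in those labelled flox. The groups overlapped by 1 flox library, and 2 of the 4 flox libraries stood well above all others. Its log2 difference was -0.53 ± 0.20 SE (95% interval -0.98 to -0.08, adjusted p = 0.938). P2rx4 was at 25.6 to 28.5 CPM in libraries labelled cKO and 28.8 to 31.5 CPM in those labelled flox, without overlap. It and the other 5 genes differed by -0.12 (P2rx4) to 0.14 (P2rx5) on the log2 scale, with adjusted p of 0.938 or above. Asic3 differed by 0.04 ± 0.09 SE and Asic2 by 0.03 ± 0.06 SE.

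Whether the genotype difference itself changed with CFA was tested as an interaction over all 21 libraries. The test called 0 of the 8 genes and 0 (0%) of 16928 genes, with 0 of the 8 and 707 of all genes at an unadjusted p under 0.05. DESeq2 called 0 of the 8 and 14 genes in all. The interaction of P2rx3 was -0.06 ± 0.13 SE and that of P2rx2 -0.36 ± 0.25 SE (log2, adjusted p = 1 for both). The 95% intervals lay between -0.89 and 0.24. The estimate for P2rx3 was lower in cKO libraries in both genotype comparisons, though it passed in neither. The interaction did not tell those differences apart, within an interval of -0.34 to 0.22. Tmem45b did not separate the CFA labels, and all CFA libraries were of female type. The interaction therefore cannot decide whether loss of Tmem45b acts differently under CFA.

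**Figure D3:**
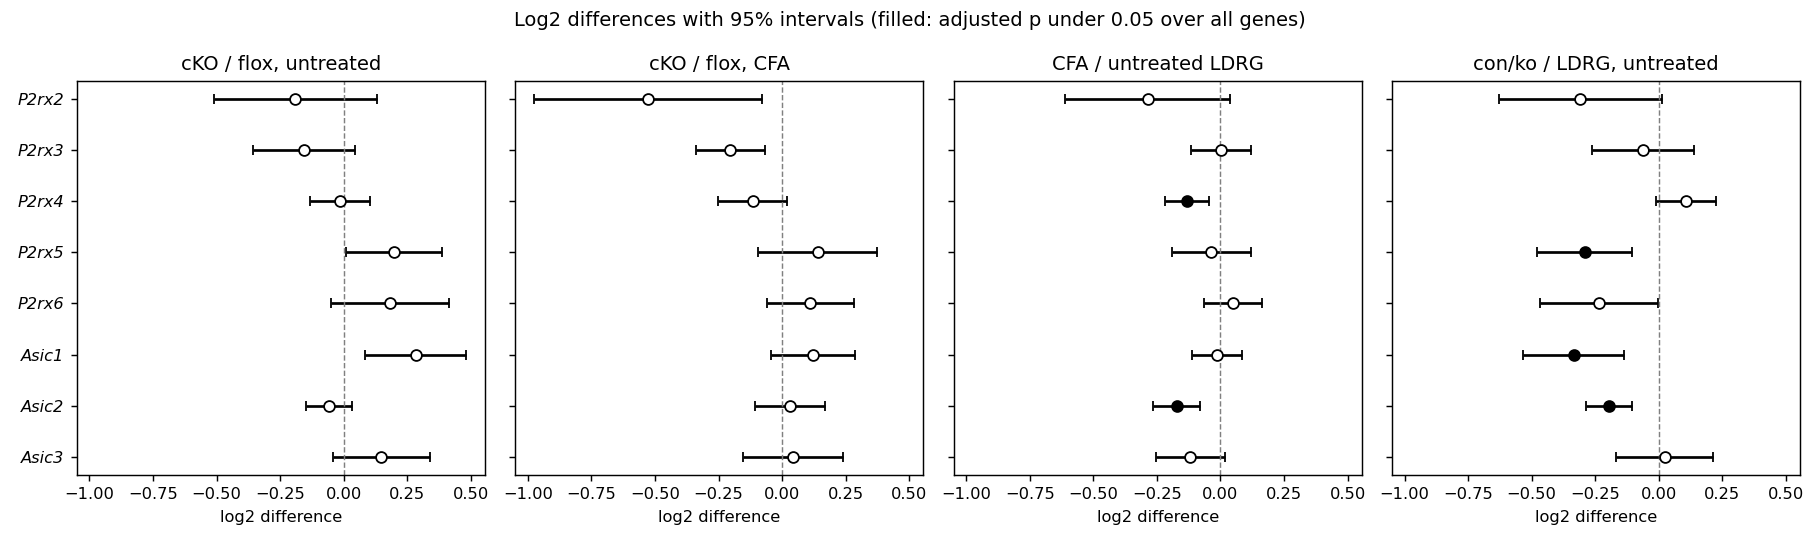
Log2 difference of each gene (horizontal axis) with its 95% interval in 4 comparisons, each named with the group on top of the ratio first. Filled points passed adjusted p under 0.05 over all genes: P2rx4 and Asic2 for CFA over LDRG, and P2rx5, Asic1 and Asic2 for con/ko over LDRG, all lower in the group named first.

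CFA libraries were compared with the untreated LDRG libraries of the same table, with genotype as a covariate. Asic2 and P2rx4 fell and none of the 8 rose with TMM scaling. In this comparison 17.3% of 16605 genes were called, 7.61% downward, and no test sets 2 called genes of 8 apart from that. The difference goes with the sex-linked transcripts named above. The median log2 difference of the 8 was -0.08, against -0.003 over all genes.

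Asic2 was at 79.3, 87.3, 81.9 and 86.7 CPM in CFA libraries labelled cKO, against 92.6, 89.1 and 89.7 CPM in cKO LDRG libraries. It was at 74.5, 81.7, 86.3 and 85.2 CPM in CFA libraries labelled flox, against 94.9, 91.0 and 104 CPM in flox LDRG libraries. Every CFA library was below every LDRG library. The log2 difference was -0.17 ± 0.04 SE (adjusted p = 0.0151), and the call held in 14 of 14 fits that left out 1 library each. Within flox libraries it was -0.23 ± 0.06 SE (adjusted p = 0.0336), where 6.82% of all genes were called and Asic2 was the only one of the 8. That call held in 10 of 14 fits, and was lost without flox CFA replicate 1 or 2 or flox LDRG replicate 1 or 3, at an adjusted p of 0.0686 to 0.125. Within cKO libraries it was -0.11 ± 0.06 SE (adjusted p = 0.304), and 0 of the 8 passed there by edgeR or DESeq2, with 1 at an unadjusted p under 0.05, against 2.61% of all genes called. The difference between the genotypes was 0.12 ± 0.08 SE in the same 14 libraries (adjusted p = 0.9754).

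P2rx4 was at 28.5, 28.3, 28.3 and 25.6 CPM in CFA libraries labelled cKO, against 30.6, 29.4 and 30.4 CPM in cKO LDRG libraries. It was at 30.1, 28.8, 29.3 and 31.5 CPM in CFA libraries labelled flox, against 30.6, 34.3 and 33.8 CPM in flox LDRG libraries. The cKO groups did not overlap and the flox groups overlapped by 1 CFA library. The log2 difference was -0.13 ± 0.04 SE (adjusted p = 0.04), and the call held in 3 of 14 fits that left out 1 library each, those without cKO CFA replicate 1, flox CFA replicate 4 or flox LDRG replicate 1. Over the 14 fits the adjusted p ran from 0.0258 to 0.0975. With the replicate number as a block it was 0.127.

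The other members did not pass. P2rx3, at 201 to 267 CPM in CFA and 212 to 289 CPM in LDRG libraries, differed by 0.002 ± 0.05 SE on the log2 scale (95% interval -0.11 to 0.12, adjusted p = 0.985). P2rx2 differed by -0.53 ± 0.20 SE within cKO libraries (adjusted p = 0.156) and by -0.04 ± 0.20 SE within flox libraries (adjusted p = 0.938). The difference between those was -0.50 ± 0.28 SE (adjusted p = 0.9754). Asic3, at 86.5 to 119.8 CPM in CFA and 97.8 to 125 CPM in LDRG libraries, differed by -0.12 ± 0.06 SE (adjusted p = 0.214). Asic1 differed by -0.01 ± 0.05 SE, P2rx5 by -0.04 ± 0.07 SE and P2rx6 by 0.05 ± 0.05 SE (adjusted p = 0.862, 0.775 and 0.564).

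Cell-type markers moved with the CFA comparison. The 12 pan-neuronal markers had a summed level of 25096 to 29084 CPM in CFA libraries, against 28064 to 30205 CPM in LDRG libraries, with 5 that fell, 1 that rose and a median log2 difference of -0.15. All 8 neutrophil markers, 7 of 10 macrophage markers and 6 of 7 red cell markers rose. With libraries scaled so that the pan-neuronal markers were level, the median of all genes moved to 0.15, the share of calls that were upward moved to 96.1% (56.1% with TMM), Asic2 to -0.02 and P2rx4 to 0.02 (adjusted p = 0.685 and 0.753). Relative to that median they stood at -0.17 and -0.13. Under the same scaling P2rx6 (0.20) and Asic1 (0.14) passed upward (adjusted p = 0.0188 and 0.0448), so the 2 genes called were other ones and in the other direction. The part of cell composition in these differences was not tested. Set against the con/ko libraries in place of LDRG, Asic2 was not lower in CFA libraries (0.04 ± 0.04 SE, adjusted p = 0.396), so its direction depends on which untreated libraries are used. P2rx4 was lower against the con/ko libraries as well (-0.22 on the log2 scale, adjusted p = 0.0021).

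The untreated con/ko and LDRG libraries, which share treatment and genotypes, differed in 47.3% of 16706 genes (21.3% downward). Sex goes partly with that comparison, since 4 of the 7 con/ko libraries and none of the LDRG libraries were of female type. Of the 8 genes, 3 fell in con/ko libraries (Asic2, Asic1 and P2rx5) and none rose with TMM scaling. P2rx2, P2rx3 and P2rx6 were lower without passing the test. The median log2 difference of the 8 was -0.22, against 0.04 over all genes.

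Asic2 was at 79.0, 75.6, 83.3 and 81.1 CPM in con/ko cKO and 81.0, 86.9 and 75.0 CPM in con/ko flox libraries, and at 89.1 to 104 CPM in the 6 LDRG libraries. All 7 con/ko libraries were below all LDRG libraries, and the log2 difference was -0.20 ± 0.04 SE (adjusted p = 0.002). Asic1 ranged over 65.5 to 114 CPM in con/ko libraries, with a median of 91.5 CPM, against 103 to 119.5 CPM and a median of 109.6 CPM in LDRG libraries. Its log2 difference was -0.33 ± 0.09 SE (adjusted p = 0.00954), and 2 con/ko libraries overlapped the LDRG range. P2rx5 ranged over 9.15 to 14.5 CPM in con/ko libraries (mean 12.03 CPM), against 12.5 to 15.8 CPM in LDRG libraries (mean 14.7 CPM), with overlap and a log2 difference of -0.29 ± 0.09 SE (adjusted p = 0.0145).

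The 3 calls held in 13 of 13 fits that left out 1 library each. With only the M-coded con/ko libraries, so that both sets were of male type, the differences were -0.22 for Asic2, -0.44 for Asic1 and -0.30 for P2rx5 (adjusted p = 0.0168, 0.00588 and 0.0275), and P2rx6 passed too (-0.30, adjusted p = 0.0308). With all con/ko libraries P2rx6 differed by -0.24 ± 0.11 SE (adjusted p = 0.0868), P2rx2 by -0.31 ± 0.15 SE (adjusted p = 0.105), P2rx4 by 0.11 ± 0.05 SE (adjusted p = 0.128), P2rx3 by -0.06 ± 0.09 SE (adjusted p = 0.622) and Asic3 by 0.02 ± 0.09 SE (adjusted p = 0.853). Spread differed between the sets gene by gene. The coefficient of variation was 20.4% in con/ko against 6.26% in LDRG libraries for Asic1, and 20.2% against 6.19% for P2rx6. It was 5.23% against 5.79% for Asic2 and 5.88% against 6.4% for P2rx4, so the con/ko set was not the more variable for these. P2rx7 rose to 28.8 to 52.3 CPM in con/ko libraries, against 24.4 to 28.9 CPM in LDRG libraries (log2 difference 0.54 ± 0.12 SE, adjusted p = 0.00302). P2rx1 also passed (adjusted p = 0.0367), at 0 to 2.01 CPM in con/ko and 0 to 0.231 CPM in LDRG libraries.

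Neuronal and other markers moved with that difference. Summed pan-neuronal markers were at 18973 to 22913 CPM in con/ko libraries against 28064 to 30205 CPM in LDRG libraries, with 10 of 12 that fell and a median log2 difference of -0.41. All 10 macrophage, 8 neutrophil and 7 red cell markers rose, as did 7 of 8 Schwann cell markers and 6 of 8 markers of central nervous system glia. The glia rise was not in every con/ko library. Their summed level was 22.6 to 103 CPM in con/ko cKO and 17.9 to 132 CPM (median 23.3) in con/ko flox libraries, against 22.1 to 33.5 CPM in LDRG libraries. With the pan-neuronal markers held level, the median of all genes stood at 0.41 and 97% of calls were upward, against 55.1% with TMM. On that scale Asic1 and P2rx5 lay at 0.04 and 0.08 (adjusted p = 0.74 and 0.436), and Asic2 was higher at 0.17 ± 0.04 SE (adjusted p = 0.00258), so their falls reversed in sign. P2rx3, P2rx2 and P2rx6 also changed sign, to 0.30, 0.06 and 0.13, and P2rx3, P2rx4 (0.48) and Asic3 (0.40) passed upward (adjusted p = 0.00591, 4.02e-05 and 0.00214). Relative to the median of all genes the 3 called genes lay below it under both scalings, at -0.37 for Asic1, -0.33 for P2rx5 and -0.24 for Asic2 with neuronal scaling. Whether tissue makeup sets these differences was not tested.

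Within groups, 4 of the 8 genes varied together from library to library. After the mean of each group was removed, Asic1 and Asic3 had a Pearson r of 0.776 over 21 libraries, Asic1 and P2rx6 0.774, Asic1 and P2rx5 0.728, P2rx5 and Asic3 0.677 and P2rx5 and P2rx6 0.62. These values are descriptions of libraries that share depth, dissection and cell makeup. Spearman's rho was 0.656, 0.782, 0.7, 0.592 and 0.629 in the same order, and without the 2 libraries farthest from the median r was 0.695, 0.778, 0.697, 0.63 and 0.713. Within the sets, Asic1 and Asic3 had r of 0.706 in 8 CFA, 0.863 in 7 con/ko and 0.605 in 6 LDRG libraries. Asic1 and P2rx6 had 0.418, 0.872 and 0.711. P2rx6 and Asic3 were the loosest pair of the 4, at 0.459 over all libraries and -0.03 in the CFA set. P2rx3 followed none of these 4, with r of -0.05 with Asic1 and -0.482 with Asic3, and went with Asic2 at 0.519. That last value was -0.02 in the CFA libraries and 0.979 in the LDRG libraries.

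Deviations were also set beside the mean of each marker list, taken over its genes with a mean of at least 5 CPM. Those of P2rx3, P2rx2 and Asic2 followed the Mrgprd-type neuron markers, with r of 0.684, 0.63 and 0.532 over 21 libraries. Those of Asic3, P2rx5 and Asic1 ran opposite to them, at -0.682, -0.528 and -0.523, with P2rx4 at -0.316 and P2rx6 at -0.241. Within sets, the value for P2rx3 was 0.285 in CFA, 0.814 in con/ko and 0.891 in LDRG libraries, and that for Asic3 -0.341, -0.825 and -0.939. Asic3 also ran opposite to the macrophage markers (-0.807 in all, -0.691 in CFA, -0.944 in con/ko and -0.439 in LDRG libraries). Asic1 and P2rx6 followed the large A-fibre and proprioceptor markers, at 0.621 and 0.627, against 0.329 for P2rx5 and 0.224 for Asic3. Asic1 had r of 0.722 with the central nervous system glia markers over all libraries, 0.966 in con/ko and -0.442 in CFA libraries, so that value rested on the con/ko set. Only 3 genes of that list reached the level needed. Spearman's rho was 0.442, and r was 0.479 without the 2 libraries farthest from the median of the list. P2rx4 went most closely with the satellite glia markers, at 0.541, and that value was -0.412 in CFA, 0.805 in con/ko and 0.908 in LDRG libraries. It leaned on few libraries, since Spearman's rho was 0.313 and r without the 2 libraries farthest from the median of the list was 0.223. Asic2 went with the pan-neuronal markers, at 0.706 over all libraries and -0.382 in the LDRG set.

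**Figure D4:**
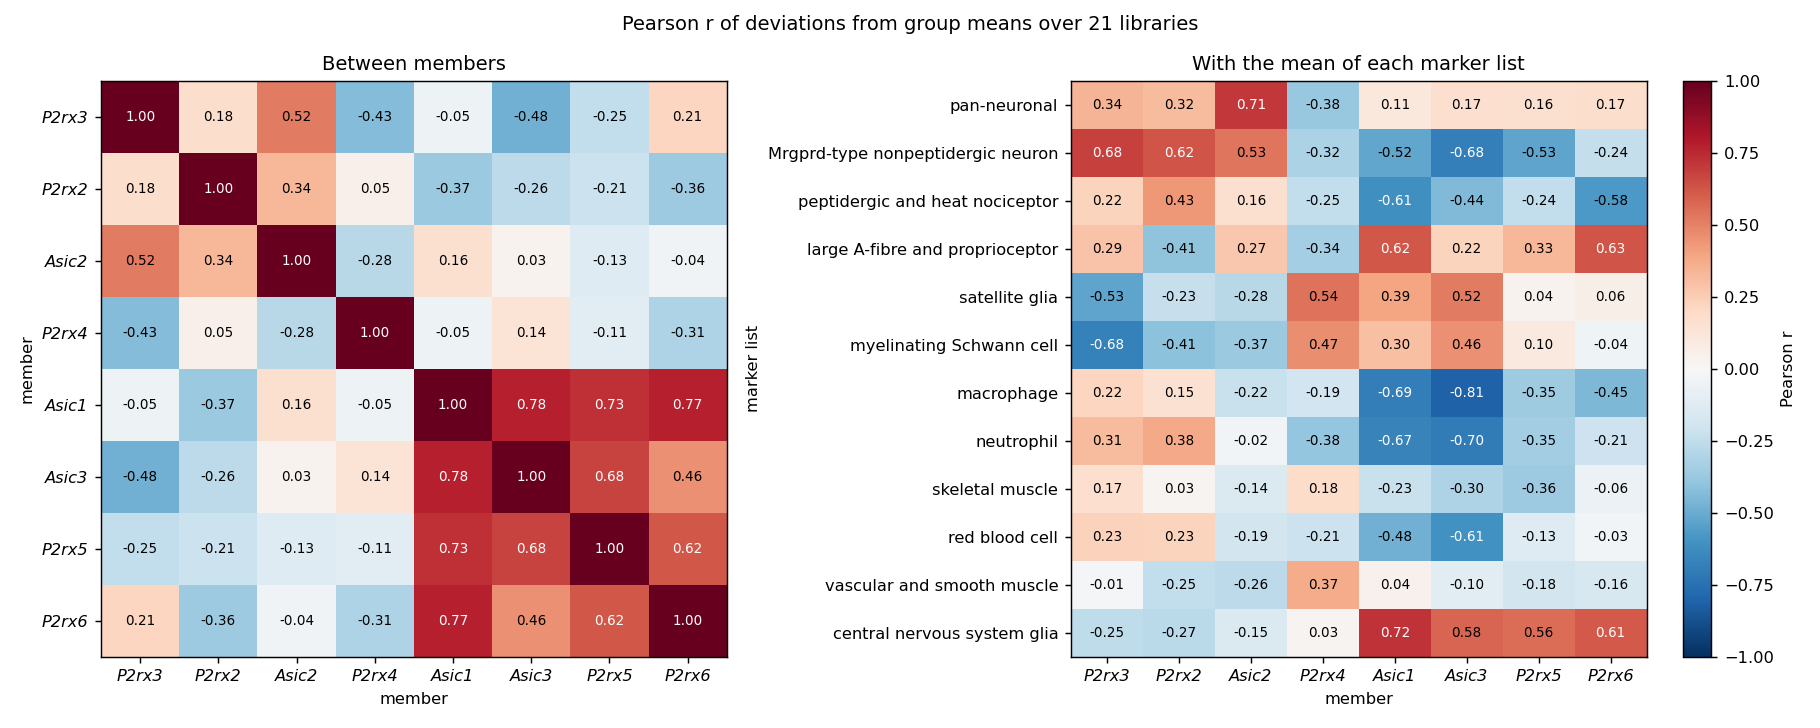
Pearson r over 21 libraries of deviations from group means, between the 8 genes (left) and between each gene and the mean of each marker list (right), from -1 in blue to 1 in red. Each list was averaged over its genes with a mean of at least 5 CPM. Asic1, Asic3, P2rx5 and P2rx6 form a block of positive values, and P2rx3 and P2rx2 are red for Mrgprd-type neuron markers, where Asic1 and Asic3 are blue.

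The genes whose deviations were most like each member were also found, among 11772 genes with a mean of at least 5 CPM over the 21 libraries. For P2rx3 they were Pi4ka (r = 0.956), Rab3gap2 (0.95) and Piezo2, the touch channel (0.947). For Asic1 they were Tmem229b (0.97), Lgi3 (0.966) and Faim2 (0.963), and for Asic3 Spire2 (0.921), Pcp4l1 (0.905) and Ckmt1 (0.894). For Asic2 they were Zdhhc9 (0.871), Pitpnm3 (0.868) and Rap1gds1 (0.831). P2rx6 was most like Stk40 (0.878), Srrm3 (0.862) and Slc25a25 (0.861), and P2rx5 most like Rere (0.823), B4galt3 (0.809) and Dip2a (0.797). P2rx4 was most like Wnt6 (0.839), Tma7-ps (0.833) and Sdf2l1 (0.805). P2rx2 averaged under 5 CPM and was left out.

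RefSeq promoter sequences (GRCm38.p6, 250 bases before the annotated start) were matched by symbol for 5 of the 8 genes. Those of Asic1 and P2rx6, genes of both families whose levels moved together within groups, are shown. The Asic1 window is chr15:99691974-99692223 and that of P2rx6 chr16:17561635-17561884, both on the plus strand, written 5′ to 3′ with motif matches in capitals:
Asic1: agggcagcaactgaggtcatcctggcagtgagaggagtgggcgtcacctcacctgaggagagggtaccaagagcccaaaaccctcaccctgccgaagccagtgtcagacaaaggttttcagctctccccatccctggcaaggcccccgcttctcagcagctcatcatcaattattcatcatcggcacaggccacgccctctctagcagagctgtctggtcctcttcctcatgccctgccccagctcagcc
P2rx6: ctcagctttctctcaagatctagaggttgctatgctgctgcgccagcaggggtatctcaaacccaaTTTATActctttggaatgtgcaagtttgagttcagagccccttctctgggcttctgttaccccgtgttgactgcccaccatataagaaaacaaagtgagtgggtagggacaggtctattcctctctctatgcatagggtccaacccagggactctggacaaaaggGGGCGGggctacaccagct
Of the 32851 RefSeq promoters of the same length, 32.7% hold the GC box GGGCGG on either strand. The TATA motif TATAAA is held by 12.4%, the E-box CAGCTG by 13%, and the cyclic AMP response element TGACGTCA by 1.55%. P2rx6 holds GGGCGG from base -19, counted from the annotated start. It holds the TATA motif on the other strand, read as TTTATA, from base -184. Asic1 holds none of the 4, and its RefSeq start lies inside the gene span given above. The windows are 59.2% G and C for Asic1 and 50.8% for P2rx6, against a median of 52.4% over all promoters. A match describes letters in the window and is not a measured binding site.

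Other genes of ATP and proton signalling were described beside the members. In untreated ganglia, 0 of 11 tested P2Y and adenosine receptors, 0 of 19 genes of ATP release and breakdown, 0 of 15 other proton sensors and 0 of 13 ASIC partners passed the genotype test. The smallest p-values of 3 of these lists went to P2ry1, an ADP receptor (log2 difference -0.21 ± 0.09 SE), Adk, adenosine kinase (-0.10 ± 0.04 SE), and Prkca, protein kinase C alpha (-0.14 ± 0.06 SE), all with adjusted p of 0.688 or above. Among CFA libraries, 0 of 10, 0 of 19, 0 of 15 and 0 of 12 genes of these lists passed. The ecto-enzymes that turn AMP into adenosine on nociceptors were Nt5e at -0.21 ± 0.06 SE and Acpp, the prostatic acid phosphatase of nonpeptidergic neurons, at -0.22 ± 0.08 SE (log2, adjusted p = 0.938 for both). Otop1, a proton channel, differed by 0.38 ± 0.10 SE and Kcnk3, an acid-inhibited potassium channel, by 0.25 ± 0.08 SE (adjusted p = 0.938 for both).

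In CFA over LDRG libraries, the list of ATP release and breakdown had 2 genes up and 4 down of 19. Over all genes 17.3% were called in that comparison, and no test sets the counts of these lists apart from that share. Adk fell by 0.23 on the log2 scale and Nt5e by 0.28 (adjusted p = 0.000702 and 0.00472). Enpp2, autotaxin, rose by 0.30 (adjusted p = 0.00127). Of 15 other proton sensors 1 rose and 1 fell, Kcnk18 by 0.27 upward and Kcnk3 by 0.33 downward (adjusted p = 0.02 and 0.00249). Of 12 ASIC partners 2 fell, S100a10, an annexin-binding protein that aids channel trafficking, by 0.23 and Pick1, a scaffold that binds ASIC1 and ASIC2, by 0.14 (adjusted p = 0.00192 and 0.0384). Of 10 P2Y and adenosine receptors 1 fell, Adora1 by 0.12 (adjusted p = 0.0484).

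In con/ko over LDRG libraries, 3 of 11 P2Y and adenosine receptors rose and 1 fell. P2ry6, P2ry13 and P2ry14, receptors of macrophages and other immune cells, rose by 0.92, 1.04 and 0.78 on the log2 scale (adjusted p = 0.000154, 0.00418 and 0.00659). They were low, reaching at most 2.26, 1.69 and 6.79 CPM in any library. ATP release and breakdown had 4 genes up and 4 down of 19, the other proton sensors 3 up and 4 down of 15, and ASIC partners 3 up and 1 down of 13. Slc17a9, the vesicular ATP carrier, rose by 1.99 (adjusted p = 0.000269), but was barely detected, at 0.0997 to 1.3 CPM over all libraries. Gpr4, a proton-sensing receptor of blood vessels that reached at most 2.53 CPM, rose by 0.91 (adjusted p = 0.000724). Kcnk9, an acid-inhibited potassium channel, fell by 0.47 (adjusted p = 0.000461). With 47.3% of all genes called in that comparison, these counts were not set apart from the background by any test.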

How the data were processed

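Raw counts per gene for 21 mouse DRG libraries had been deposited by the authors in 2 tables, and the 24381 shared genes were used. The submitters' processing notes name fastp 0.23.2, BWA 2.2.1, SAMtools 1.14, DESeq2 1.40.2 and mm10. Per the labels' protocols, oligo-dT-selected RNA was sequenced as read pairs. No source used here names the counting tool, its strand setting or its filters. Low counts favour 4 (4068 values) over 3 (2096 values) in the table of 14 libraries, though 6 (1366 values) lies below 5 (2253) and 7 (1586). A fragment may be counted more than once, and counting error may then be larger than the totals imply. The other table was not examined in this way.

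Genes were filtered with filterByExpr (minimum count 10, total 15), scaled by TMM, and tested with edgeR 4.0.16 (R 4.3.3, limma 3.58.1) by quasi-likelihood F tests, Benjamini-Hochberg adjusted over all genes, called at adjusted p under 0.05. Untreated genotypes were fitted with name set as a covariate, and CFA against LDRG in the 14-library table. DESeq2 1.42.0, other scalings and filters, left-out libraries, blocks and subsets were alternatives. Within-group deviations used log2(CPM + 0.5). In simulated data 61% of genes changed 1.5-fold and 74% of genes changed 2-fold were recovered for the untreated genotypes, over 16706 genes. The simulation held many more changed genes than were called here, and no difference between the name sets. Its rates therefore cannot be carried over to the untreated genotype test of these data. Intervals are 95%. All 8 members were named, with up to 4 genes of each list by smallest p and the 3 genes most alike. Replicate pairs differed beyond counting noise (chi-square per degree of freedom 26.1 to 145 over 27 pairs). Members and lists were chosen with earlier results of these data known. Figures used matplotlib 3.10.9 in Python 3.11.15.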

Additional observations from a re-analysis of the deposited data

Results flagged for a closer look

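P2rx4 in replicate 4 of the CFA libraries labelled cKO stood apart from its group, at 25.61 CPM against 28.25 to 28.47 CPM in the other 3 libraries. The gap made up 0.925 of the group's range, above Dixon's 95% critical value for 4 samples. This was 1 of 24 groups of 4 libraries examined, and chance flags about 1 group in 20. Without that library the CFA against LDRG difference of P2rx4 was -0.12 on the log2 scale (adjusted p = 0.0536) and the genotype difference among CFA libraries was -0.08.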

How the results depend on the processing

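The counts of called genes among the 8 stayed at 0 for both genotype comparisons and the interaction in every alternative run. For CFA over LDRG, 2 genes were called, 1 to 2 when a library was left out, 1 with the replicate block, 4 with con/ko libraries as untreated and 1 with both name sets. Pan-neuronal scaling also gave 2, but these were P2rx6 and Asic1, both upward (adjusted p = 0.0188 and 0.0448), with Asic2 and P2rx4 no longer called. Within cKO libraries, 0 were called, 1 with con/ko libraries and 1 with both sets. Within flox libraries, 1 was called, 0 to 1 with a library left out, 0 with pan-neuronal scaling, 2 with con/ko libraries and 0 with both sets. For con/ko over LDRG, 3 were called, 3 to 4 with a library left out and 5 with L-coded con/ko libraries only. Over all genes, CFA over LDRG called 2878 of 16605, 8404 of 16792 with con/ko libraries and 5470 of 16928 with both sets. Those 2 alternatives called 6023 and 3220 genes within cKO libraries, and 5000 and 2252 within flox libraries. L-coded libraries alone called 7411 of 17277 genes. No test sets the counts among the 8 apart from these.

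Some log2 differences changed sign, and the cause was not tested. Pan-neuronal scaling gave P2rx2 0.134 (CFA, flox) and 0.064 (con/ko), P2rx3 0.114 (CFA, cKO) and 0.302 (con/ko), P2rx4 0.023 (CFA) and 0.054 (CFA, flox), P2rx5 0.115 (CFA), 0.105 (cKO), 0.125 (flox) and 0.081 (con/ko) and P2rx6 0.133 (con/ko). It gave Asic1 0.137 (CFA), 0.087 (cKO) and 0.036 (con/ko), Asic2 -0.049 (genotype in CFA), 0.0057 (CFA, cKO) and 0.172 (con/ko), and Asic3 -0.036 (genotype in CFA), 0.032 (CFA) and 0.105 (CFA, flox). With con/ko libraries as untreated, CFA differences were Asic1 0.333 (all) and 0.205 (cKO), Asic2 0.045, 0.072 (cKO) and 0.013 (flox), P2rx2 0.024 and 0.133 (flox), P2rx3 0.041 (cKO), and P2rx5 0.271, 0.203 (cKO) and 0.352 (flox). With F-coded con/ko libraries only they were Asic1 0.27, Asic2 0.037, P2rx2 0.167 and P2rx5 0.265. With both name sets they were Asic1 0.166 and 0.082 (cKO), P2rx2 0.054 (flox), P2rx3 0.014 (cKO), and P2rx5 0.122, 0.089 (cKO) and 0.155 (flox). P2rx3 within cKO was 0.00042 by DESeq2 and by RLE scaling, 0.0053 with a 5 CPM filter and 0.0032 with no filter. For con/ko over LDRG, Asic3 was -0.202 with L-coded and -0.154 with M-coded libraries, and P2rx3 0.012 with M-coded libraries. For untreated genotypes P2rx4 was 0.092 in the con/ko set alone and P2rx2 0.063 with the muscle covariate.

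Leaving out libraries gave ranges that crossed 0, again with the cause not tested. For CFA over LDRG they were Asic1 -0.049 to 0.0017 and P2rx3 -0.0303 to 0.052. Within cKO they were P2rx3 -0.041 to 0.033 and P2rx5 -0.051 to 0.021. Within flox they were Asic1 -0.069 to 0.0398, Asic3 -0.158 to 0.0016, P2rx2 -0.169 to 0.115, P2rx3 -0.071 to 0.124, P2rx5 -0.138 to 0.0199 and P2rx6 -0.028 to 0.099. For genotype in CFA they were Asic2 -0.012 to 0.054 and Asic3 -0.039 to 0.115, for untreated genotypes P2rx4 -0.046 to 0.016, for the interaction P2rx5 -0.137 to 0.015, and for con/ko over LDRG Asic3 -0.042 to 0.051.

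Calls over all genes moved too. DESeq2 called 40 against 1 for untreated genotypes, 18 against 0 in CFA and 14 against 0 for the interaction. For CFA over LDRG the count was 2878, 5722 with pan-neuronal scaling, 1800 with the replicate block and 8404 with con/ko libraries as untreated. Within cKO it was 433, 1292 by DESeq2, 987 with that scaling (96% upward, against 65.1%) and 217 with the block. Within flox it was 1133, 1928 by DESeq2, 3755 with that scaling (96.5% upward, against 55.3%) and 738 with the block. P2rx6 (con/ko over LDRG) was called by DESeq2 (-0.25, adjusted p = 0.0451), and P2rx5 was not with C-coded libraries only (-0.19, adjusted p = 0.0912), an alternative chosen after the data were seen. P2rx2 was called without flox con/ko replicate 6 (-0.46, adjusted p = 0.00828). Libraries with the same replicate number correlated by -0.17 to 0.32 in their deviations. Those values were not set against libraries of unlike number, so they cannot decide whether the numbers pair libraries. With the replicate block 1 of the 8 genes (Asic2) was called for CFA over LDRG. No paired analysis was possible because the con/ko and LDRG sets share no replicate numbers, for that comparison alone.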
